A study of Mus musculus with 107 samples.

Results

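The genes described here are 9 components of bone morphogenetic protein (BMP) and TGFβ signaling in endothelial cells. They are the co-receptor endoglin (Eng), the receptors Acvrl1, Bmpr2 and Tgfbr2, the inhibitory SMAD genes Smad6 and Smad7, and the target genes Id1, Id2 and Id3. They were chosen by symbol, and each of the 9 matched 1 of the 50686 genes in the expression table. RNA was sequenced from subcutaneous tumors grown from 12 mouse cancer cell lines in immunocompetent mice. Untreated tumors taken at about 100 mm3 formed the treatment-naive group (35 tumors). The NT group (36 tumors) was left untreated until day 8, and the LEN group (36 tumors) was collected on day 8 after 7 days of lenvatinib, given every day at 10 mg/kg. Lenvatinib (LEN) is an inhibitor of several receptor tyrosine kinases, among them the VEGF and FGF receptors.

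The BALB/cAnNCrlCrlj strain carried BNL 1ME A.7R.1 (hepatocellular carcinoma), RAG and Renca (renal cell carcinoma), 4T1 and EMT6 (breast) and CT26.WT (colorectal). MC38 (colorectal) and B16-F10 (melanoma) were grown in C57BL/6NCrl, and LL/2 (lung) in C57BL/6JCrl. MBT2 (bladder) was grown in C3H/HeNCrl, KLN205 (lung) in DBA/2NCrl and Hepa 1-6 (hepatocellular carcinoma) in C57L/J. Each group of a model held 3 tumors, except for 2 treatment-naive MC38 tumors. Each model is a single cell line, and for LL/2, MBT2, KLN205 and Hepa 1-6, each alone in its strain, line and strain cannot be told apart.

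In endothelial cells, circulating BMP9 and BMP10 bind a complex of the type I receptor ALK1, encoded by Acvrl1, and the type II receptor BMPR2, and endoglin raises the affinity of the complex for these ligands. The receptors phosphorylate SMAD1 and SMAD5, which enter the nucleus with SMAD4 and switch on Id genes and their own inhibitor Smad6. The TGFβ receptor TGFBR2 works mainly through SMAD2 and SMAD3, and SMAD7 turns off both branches. Loss of endoglin or ALK1 underlies hereditary hemorrhagic telangiectasia, and loss of BMPR2 underlies heritable pulmonary arterial hypertension. None of the 9 genes is active in endothelial cells alone.

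All 9 are protein-coding genes, placed here on mouse GRCm38, the build used by the authors. Eng lies on chr2:32646595-32682669 on the plus strand with 15 exons in its longest annotated transcript, and its end overlaps Fpgs on the opposite strand. Acvrl1 (chr15:101128522-101145336, plus) overlaps the antisense gene Gm16031, and Bmpr2 (chr1:59763400-59879014, plus) holds Gm38125 on its own strand. Whether reads were counted by strand is not given in the sources used here, so reads from these overlaps cannot be told apart. Tgfbr2 (chr9:116084293-116175360) and Smad6 (chr9:63953076-64022059) lie on the minus strand of the same chromosome. The Id genes are short. Id1 spans chr2:152736251-152737410 (plus), Id2 chr12:25093799-25097140 (minus) and Id3 chr4:136143497-136145755 (plus).

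Promoter windows around the start that RefSeq (GRCm38.p6) gives were searched for 6 of the 9 genes, without Acvrl1, Smad7 and Id1. For Bmpr2, Id2 and Id3 that start lies inside the span of the gene, and their windows lie wholly downstream of the outermost annotated start. Those of Eng, Smad6, Id2 and Id3 are printed because they stand for a gene that fell with LEN, an inhibitor and a target that rose, and a target with no mean change past the threshold. The motifs searched were 3 in number and read on both strands, and matches are in capitals. GGCGCC is a core of GC-rich elements bound by SMAD1 and SMAD5, GTCTAGAC is a palindromic SMAD binding element, and AGGAAG is a site of ETS factors, which include endothelial regulators. Eng is chr2:32646345-32646644 (plus), Smad6 is chr9:64022010-64022309 (minus), Id2 is chr12:25096043-25096342 (minus) and Id3 is chr4:136143572-136143871 (plus).
Eng: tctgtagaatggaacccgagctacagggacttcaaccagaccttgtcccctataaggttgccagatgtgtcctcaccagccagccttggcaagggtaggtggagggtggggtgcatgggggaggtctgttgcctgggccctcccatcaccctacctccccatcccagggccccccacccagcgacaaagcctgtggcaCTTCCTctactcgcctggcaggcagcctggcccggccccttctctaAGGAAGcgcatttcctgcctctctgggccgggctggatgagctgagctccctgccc
Smad6: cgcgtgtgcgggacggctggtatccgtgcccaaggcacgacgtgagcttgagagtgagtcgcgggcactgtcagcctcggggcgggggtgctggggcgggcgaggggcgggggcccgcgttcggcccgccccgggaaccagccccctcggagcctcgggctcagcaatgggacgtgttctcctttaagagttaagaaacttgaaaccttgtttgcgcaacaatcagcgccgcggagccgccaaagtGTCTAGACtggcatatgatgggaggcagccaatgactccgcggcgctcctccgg
Id2: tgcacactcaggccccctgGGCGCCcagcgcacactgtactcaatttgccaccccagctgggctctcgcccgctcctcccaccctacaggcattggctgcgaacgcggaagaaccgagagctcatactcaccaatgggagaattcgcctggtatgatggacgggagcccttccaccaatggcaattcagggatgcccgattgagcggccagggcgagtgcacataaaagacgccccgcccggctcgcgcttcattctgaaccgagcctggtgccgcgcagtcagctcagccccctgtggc
Id3: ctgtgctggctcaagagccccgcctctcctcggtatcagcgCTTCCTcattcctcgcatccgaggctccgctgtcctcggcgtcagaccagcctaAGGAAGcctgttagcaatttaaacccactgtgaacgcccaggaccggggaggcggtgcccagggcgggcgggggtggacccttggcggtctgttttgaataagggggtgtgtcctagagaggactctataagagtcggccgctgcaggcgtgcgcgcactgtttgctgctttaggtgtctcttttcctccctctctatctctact
Of the 32851 promoter windows in the table, 0.213% held GTCTAGAC, 11.9% held GGCGCC and 35.4% held AGGAAG. The Smad6 window held 1 GTCTAGAC across its start site. The Id2 window held 1 GGCGCC, as did that of Bmpr2. AGGAAG was present 2 times in each of the Eng and Id3 windows and 1 time in those of Bmpr2 and Tgfbr2. A match describes the letters of the window only.

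Expression is given as TPM, which is scaled by gene length and to the same total in each tumor. TPM does not retain read totals, and the number of reads behind a value is not known. For each tumor, the tumor with the most similar profile came from the same model. In bulk tumors, fewer cells of a type and less RNA per cell cannot be told apart. Summed TPM of 8 endothelial markers was 37.0 to 159.8 in treatment-naive, 29.1 to 146.6 in NT and 13.4 to 79.7 in LEN tumors, so endothelial RNA was present in every tumor.

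**Figure D1:**
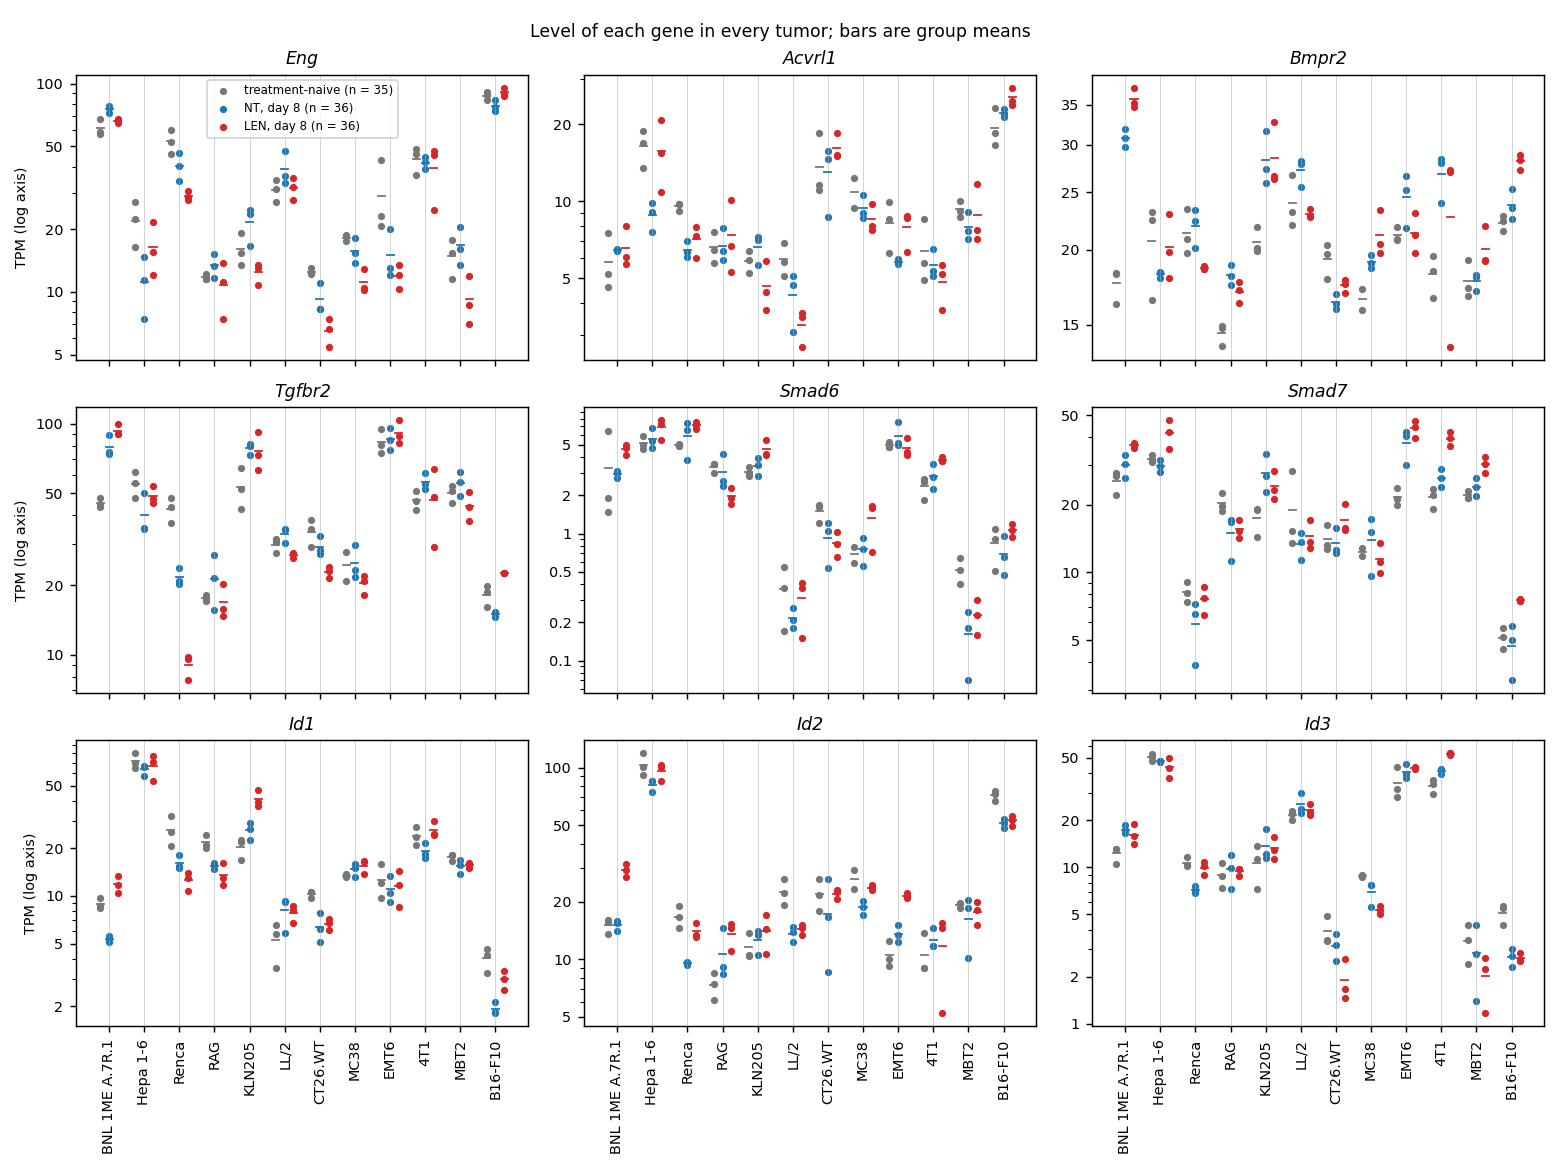
TPM on a log axis of each of the 9 genes in every tumor by model, with treatment-naive, NT and LEN tumors in gray, blue and red and bars at group means (n = 3, or 2 for treatment-naive MC38). The mean of Eng is highest in B16-F10 in all 3 groups, the Id genes are highest in Hepa 1-6 among treatment-naive tumors, and Tgfbr2 in Renca is lowest under LEN.

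RNA levels of the genes in treatment-naive tumors were compared over the 12 models. Activity of the pathway was not tested. Eng, the endothelial co-receptor, ranged from 11.7 ± 0.436 TPM (SD, n = 3) in RAG to 87.6 ± 3.82 TPM (SD, n = 3) in B16-F10. The 3 B16-F10 tumors had 83.5, 88.3 and 91.0 TPM, and BNL 1ME A.7R.1, next in order, had 57.3, 59.0 and 67.7 TPM, with no overlap. Below these came Renca, 4T1 and LL/2, and in the order from LL/2 down to CT26.WT no pair of neighbors differed by more than the larger of their SDs on the log2 scale. Cdh5, which encodes VE-cadherin and marks endothelial cells, had 9.82, 11.7 and 12.1 TPM in the same B16-F10 tumors. The ratio of mean Eng to mean Cdh5 in TPM was therefore 7.81 in treatment-naive B16-F10, compared with 0.859 (MBT2) to 2.22 (4T1) in the other 11 models. It was 8.42 in NT and 27.9 in LEN B16-F10 tumors, beside 0.665 to 3.84 and 0.701 to 8.30 in the other models. The ratio was higher in LEN than in NT tumors in 11 of 12 models, while Cdh5 was lower in 12 of 12. With LEN, 98.7% of all genes were called above the mean of 4 endothelial genes, Cdh5 among them. A rise is therefore not particular to Eng.

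Among the receptors, Acvrl1 ranged from 5.78 ± 1.52 TPM (SD, n = 3) in BNL 1ME A.7R.1 to 19.4 ± 3.37 TPM (SD, n = 3) in B16-F10. For Acvrl1, none of the 11 gaps between neighboring models exceeded the larger SD on the log2 scale. Bmpr2 was the most even gene, from 14.5 TPM in RAG to 23.9 TPM in LL/2, a ratio of 1.65. Tgfbr2 ranged from 17.6 TPM in RAG to 83.5 TPM in EMT6, where the tumors had 74.9, 81.0 and 94.6 TPM. EMT6 stood above Hepa 1-6 (47.5, 55.6 and 61.7 TPM) with no overlap.

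Smad6 was the lowest of the 9 genes. Its mean was 5.17 TPM in Hepa 1-6, 4.96 in Renca and 4.94 in EMT6, which did not differ beyond their spread, and 0.363 TPM in LL/2. In BNL 1ME A.7R.1 1 treatment-naive tumor had 6.38 TPM and the others 1.48 and 1.92. Smad7 was higher, from 5.12 TPM in B16-F10 to 31.9 TPM in Hepa 1-6.

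The Id genes encode dominant-negative helix-loop-helix proteins that hold back differentiation factors. Id1 had 65.0, 69.7 and 80.0 TPM in treatment-naive Hepa 1-6, and the next model, Renca, had 20.7, 25.3 and 32.3 TPM. B16-F10 had the lowest mean of Id1 with 4.02 ± 0.707 TPM (SD, n = 3), overlapping LL/2 at 5.25 ± 1.57 TPM (SD, n = 3). For Id2, Hepa 1-6 (91.9, 100.1 and 118.5 TPM) and B16-F10 (67.3, 72.7 and 75.3 TPM) stood above the other 10 models, whose means ran from 7.35 TPM in RAG to 26.2 TPM in MC38. B16-F10 thus held the lowest mean of Id1, not apart from LL/2, and, after Hepa 1-6, the highest of Id2. Id3 ranged from 3.38 TPM in MBT2 to 50.4 TPM in Hepa 1-6, followed by EMT6 and 4T1 at 34.7 and 33.2 TPM.

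Each of the 9 genes differed between models in treatment-naive tumors by the limma F test, as did 93.6% of all genes tested. The largest adjusted p of the 9 was 2.03e-05, for Bmpr2. Over all tumors, the model accounted for 50.0% of the variance of log2(TPM + 1) for Bmpr2 and between 81.2% (Tgfbr2) and 95.5% (Id3) for the other 8 genes.

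The effect of LEN was examined as the mean over the 12 models of the difference between LEN and NT tumors, fitted with limma to all 72 day 8 tumors on log2(TPM + 1). Eng and Tgfbr2 fell, Smad6, Smad7, Id1 and Id2 rose, and Acvrl1, Bmpr2 and Id3 did not pass the threshold. All 9 genes passed the filter of a mean of at least 1 TPM. Of all 17351 genes tested, 9.87% were lower and 13.7% were higher with LEN. The median change was 0.075 over the 9 genes and -0.0019 over all genes. The changes were small beside those of the endothelial genes Cdh5, Pecam1, Tie1 and Esam, which fell by 1.17, 0.72, 0.85 and 0.74 on the log2 scale, each in 12 of 12 models. Among called genes, 58.1% were higher with TPM as deposited and 41.9% after upper-quartile rescaling, but each of the 9 genes kept its direction and its call under both scalings. Without BNL 1ME A.7R.1, the number of genes higher fell from 2371 to 1440.

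**Figure D2:**
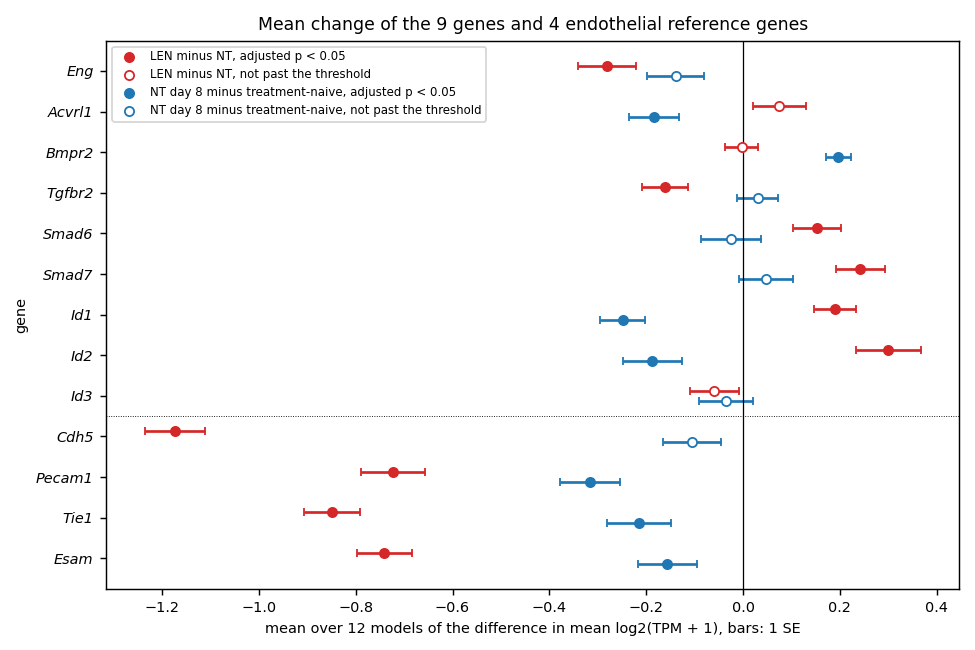
Mean over 12 models of the change in log2(TPM + 1) for the 9 genes and 4 endothelial reference genes, with bars of 1 SE, for LEN minus NT (red, 72 tumors) and NT day 8 minus treatment-naive (blue, 71 tumors). Filled points passed an adjusted p of 0.05. With LEN the 4 reference genes lie between -1.17 and -0.72, and the 9 genes between -0.28 and 0.30.

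Eng was the member that fell most, by 0.28 ± 0.061 (SE) on the log2 scale (adjusted p = 0.000324, limma), in 10 of 12 models. In MBT2, NT tumors had 13.4, 16.2 and 20.6 TPM and LEN tumors 6.99, 8.66 and 12.0 TPM. In KLN205, NT tumors had 16.5, 23.6 and 24.8 TPM and LEN tumors 10.7, 13.0 and 13.4 TPM. LEN lay below NT with no overlap in these 2 models and in BNL 1ME A.7R.1, CT26.WT, MC38 and Renca, 6 of 12 in all. Hepa 1-6 and B16-F10 went the other way. Hepa 1-6 NT tumors had 7.42, 11.4 and 14.7 TPM and LEN tumors 12.1, 15.5 and 21.8 TPM, which overlap. B16-F10 had 73.8, 77.8 and 83.5 TPM in NT and 87.5, 89.8 and 96.0 TPM in LEN tumors, with no overlap, while Cdh5 in those tumors went from 7.37, 10.1 and 10.5 TPM to 3.12, 3.19 and 3.50 TPM. The change of Eng differed between models (F test, adjusted p = 0.0126), a call that was lost without Hepa 1-6 (adjusted p = 0.105).

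The type I receptor Acvrl1 changed by 0.075 ± 0.055 (SE, adjusted p = 0.353), from -0.44 in KLN205 to 0.73 in Hepa 1-6. Hepa 1-6 had 7.62, 9.06 and 9.86 TPM in NT and 10.9, 15.5 and 20.7 TPM in LEN tumors, with LEN above NT in every tumor. EMT6 and B16-F10 also showed LEN above NT with no overlap, and no model showed the reverse. The F test of a difference between models gave an adjusted p of 0.0210, which became 0.124 without Hepa 1-6 and 0.0703 without KLN205, and 0.0530 and 0.0602 without single tumors of Hepa 1-6 (NT replicate 2 and LEN replicate 1). Upper-quartile rescaling gave 0.0520.

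The type II receptor Bmpr2 had a mean change of -0.0023 ± 0.034 (SE, adjusted p = 0.974), with its sign depending on which tumors or models were left out (-0.024 to 0.024). Behind this mean, LEN lay above NT with no overlap in 5 models (BNL 1ME A.7R.1, CT26.WT, MC38, MBT2 and B16-F10) and below it in 2 (LL/2 and Renca). In B16-F10, NT tumors had 22.5, 23.5 and 25.3 TPM and LEN tumors 27.2, 28.3 and 28.9 TPM. In LL/2, NT tumors had 25.5, 27.8 and 28.2 TPM and LEN tumors 22.7, 22.8 and 23.4 TPM. The difference between models had an adjusted p of 0.0300, which rose above the threshold without BNL 1ME A.7R.1 (0.0830), Renca (0.0634), LL/2 (0.0697) or B16-F10 (0.0735), or without 4T1 NT replicate 2 (0.0516) or 3 (0.0528). LEN replicate 4 of 4T1 had 13.7 TPM of Bmpr2 where the other two had 27.1 and 27.3 TPM, and without it the mean change was 0.024. That tumor was also the lowest of the 3 for Eng (24.8 TPM), Tgfbr2 (29.2 TPM) and Id2 (5.23 TPM) and the highest for Smad6 (3.98 TPM), and its summed endothelial markers were 22.8 TPM beside 35.3 and 38.4 TPM.

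Tgfbr2 fell by 0.16 ± 0.047 (SE, adjusted p = 0.00864), lower in 8 of 12 models. This call rested on Renca. Renca had 20.2, 20.9 and 23.7 TPM in NT and 7.74, 9.58 and 9.80 TPM in LEN tumors, and without Renca the mean change was -0.069 with an adjusted p of 0.378. B16-F10 moved in the opposite direction, from 14.6, 15.2 and 15.4 TPM to 22.5, 22.5 and 22.6 TPM, with LEN above NT in every tumor. The difference between models was the clearest of the 9 genes (adjusted p = 8.58e-06) and remained past the threshold whichever tumor or model was left out (largest adjusted p = 0.00985).

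The inhibitor Smad6, itself a BMP target, rose by 0.15 ± 0.049 (SE, adjusted p = 0.0176), in 9 of 12 models. Some of these had very low means in NT and LEN tumors, with overlap. They were LL/2 (0.217 and 0.31 TPM), MBT2 (0.163 and 0.23 TPM), B16-F10 (0.693 and 1.06 TPM) and MC38 (0.75 and 1.32 TPM). BNL 1ME A.7R.1 had 2.73, 3.0 and 3.08 TPM in NT and 4.14, 4.68 and 5.01 TPM in LEN tumors. KLN205 and 4T1 also showed LEN above NT with no overlap, while RAG showed the reverse, from 2.35, 2.60 and 4.23 TPM to 1.71, 1.90 and 2.29 TPM. The mean call was lost without BNL 1ME A.7R.1 (0.12, adjusted p = 0.112), KLN205 (0.14, adjusted p = 0.0530) or B16-F10 (0.14, adjusted p = 0.0509), and with the share of Rn7 genes as a covariate (0.14, adjusted p = 0.0720). The difference between models (adjusted p = 0.0322) was lost in 10 of 84 fits with a tumor or a model left out, all of which left out RAG, BNL 1ME A.7R.1 or EMT6 or a tumor of them. Its adjusted p was 0.187 without RAG and 0.143 with a pseudocount of 0.1.

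Smad7 (chr18:75367529-75395935, plus strand) rose by 0.24 ± 0.050 (SE, adjusted p = 0.000188), in 10 of 12 models. B16-F10 tumors had 3.32, 5.01 and 5.79 TPM in NT and 7.45, 7.47 and 7.61 TPM in LEN. 4T1 tumors had 23.9, 26.3 and 28.7 TPM in NT and 36.5, 39.5 and 42.0 TPM in LEN. Together with BNL 1ME A.7R.1, Hepa 1-6 and MBT2, these were 5 models in which LEN lay above NT with no overlap, and none showed the reverse. Smad7 was lower with LEN only in KLN205 and MC38, by 0.18 and 0.23 on the log2 scale, and the F test of a difference between models gave an adjusted p of 0.0634. Left-out fits moved the mean between 0.21 and 0.29, with adjusted p up to 0.00215.

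Id1 rose by 0.19 ± 0.043 (SE, adjusted p = 0.000673), in 9 of 12 models. BNL 1ME A.7R.1 had 5.15, 5.21 and 5.62 TPM in NT and 10.5, 11.8 and 13.4 TPM in LEN tumors, and KLN205 had 22.5, 26.7 and 28.8 TPM and then 37.0, 39.1 and 47.0 TPM. LEN was above NT with no overlap in these models and in 4T1 and B16-F10, and below it in Renca, with 15.1, 15.4 and 18.2 TPM in NT and 10.8, 13.1 and 13.9 TPM in LEN. The difference between models had an adjusted p of 2.93e-05. Without BNL 1ME A.7R.1 the mean was 0.11, below the main value by more than 1.5 times, and its adjusted p was 0.0812.

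Id2 was the member that rose most, by 0.30 ± 0.067 (SE, adjusted p = 0.000480), in 11 of 12 models. In BNL 1ME A.7R.1 it went from 14.1, 15.4 and 15.7 TPM to 26.9, 29.4 and 31.5 TPM. In EMT6 it went from 12.3, 13.4 and 15.0 TPM to 20.9, 21.0 and 22.0 TPM, and MC38 and Renca also showed no overlap. The exception was 4T1, at -0.22 with the LEN replicate 4 at 5.23 TPM. The F test of a difference between models gave an adjusted p of 0.185, and no left-out tumor or model ended the mean call (largest adjusted p = 0.0123). Id3 did not follow its relatives. Its mean change was -0.059 ± 0.051 (SE, adjusted p = 0.448), with 9 models lower and 3 higher. The groups did not overlap in Renca (6.82, 7.18 and 7.62 TPM in NT, 8.91, 10.2 and 10.8 TPM in LEN) and 4T1 (39.6, 41.7 and 42.3 TPM, then 52.0, 53.4 and 53.5 TPM), in both of which LEN was above NT.

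The effect of LEN differed between models for 6 of the 9 genes, beside 35.3% of all genes tested. Smad7 and Id3 also passed after upper-quartile rescaling, with adjusted p of 0.0444 and 0.0111. Among 84 fits with a tumor or model left out, the F test passed in 11 for Smad7, 12 for Id3 and 1 for Id2. Without the LEN tumors high in skeletal muscle markers, 6 tumors left out in a fit added after seeing the data, the models differed for 2156 genes instead of 6122 and for 2 of the 9, Tgfbr2 and Id1. There the adjusted p was 0.176 for Eng, 0.105 for Acvrl1, 0.120 for Bmpr2 and 0.177 for Smad6. Over the 108 combinations of gene and model, LEN lay below NT with no overlap in 13 (12.0%) and above it in 29 (26.9%), compared with 10.6% and 12.7% of combinations for all genes.

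**Figure D3:**
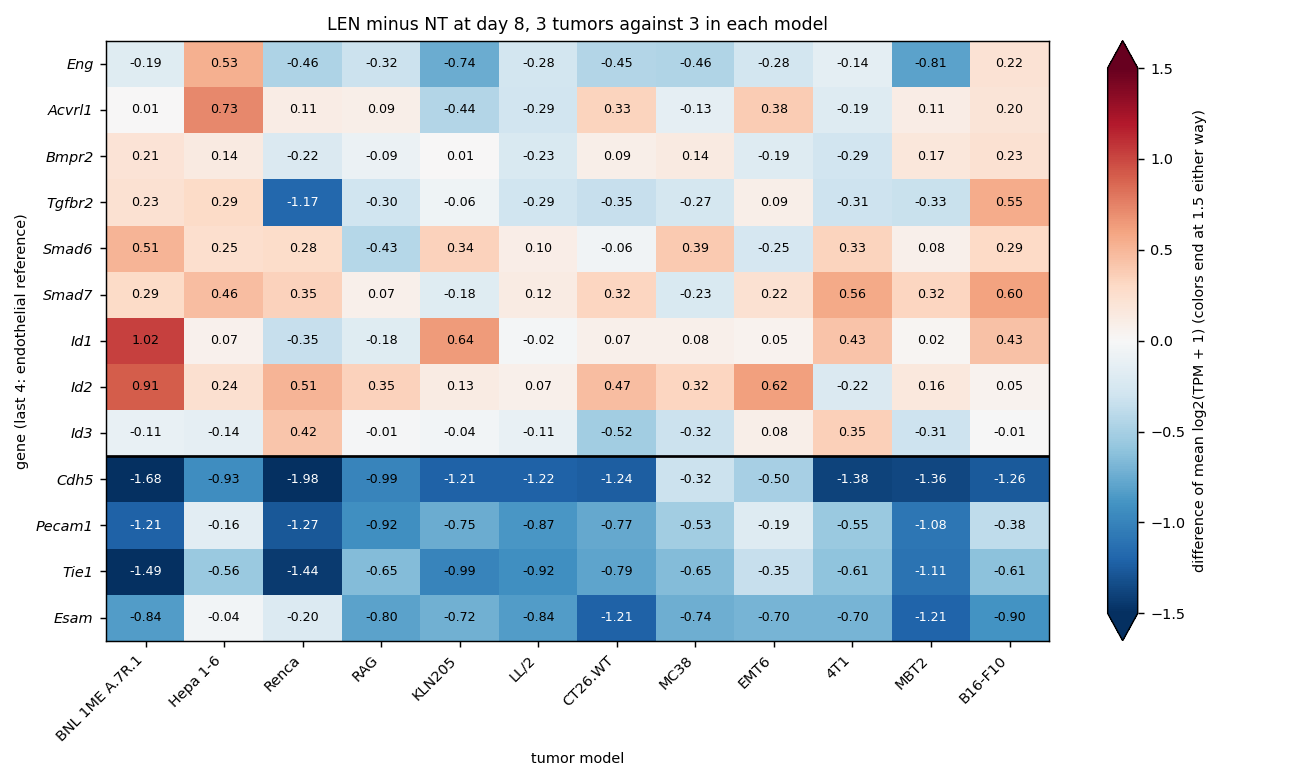
Difference of mean log2(TPM + 1) between LEN and NT tumors (3 against 3) for each gene and model, with the 4 endothelial reference genes below the line. The reference genes are lower in every model, whereas Smad7 is higher in 10 models, Id2 in 11 and Eng lower in 10, and Tgfbr2 in Renca (-1.17) is the lowest value of the 9 genes.

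When each model was fitted alone, 3 of 104 tests of the 9 genes were lower and 7 were higher with LEN. Smad6 could not be tested in 4 models, where its mean was under 1 TPM. Most models gave few calls for any gene. The share of all genes called was 31.5% in BNL 1ME A.7R.1, 12.1% in Renca and 11% in B16-F10, and all 10 calls of the 9 genes were in these 3 models. In the other models the share was 0.0664% (Hepa 1-6), 0.0326% (RAG), 0.228% (KLN205), 0.148% (LL/2), 0.00659% (CT26.WT), 0.0314% (MC38), 0.916% (EMT6), 0.0127% (4T1) and 0.0195% (MBT2). The called changes in BNL 1ME A.7R.1 were Id1 (1.02 ± 0.11, SE, adjusted p = 0.000811), Id2 (0.91 ± 0.084, SE, adjusted p = 0.000458), Smad6 (0.51 ± 0.12, SE, adjusted p = 0.0182), Bmpr2 (0.21 ± 0.063, SE, adjusted p = 0.0430) and Eng (-0.19 ± 0.055, SE, adjusted p = 0.0417). In Renca they were Tgfbr2 (-1.17, adjusted p = 0.00130), Id2 (0.51, adjusted p = 0.0134), Id3 (0.42, adjusted p = 0.0369) and Eng (-0.46, adjusted p = 0.0488), and in B16-F10 Tgfbr2 (0.55, adjusted p = 0.00437).

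With 1 of the 6 tumors left out, the fits rest on fewer tumors. The calls of Id1 and Id2 in BNL 1ME A.7R.1 and Tgfbr2 in Renca and B16-F10 were kept whichever of the 6 tumors was left out. Those of Eng and Bmpr2 in BNL 1ME A.7R.1 and of Id3 in Renca were lost in all 6 fits, Eng in Renca in 5, Smad6 in BNL 1ME A.7R.1 in 4 and Id2 in Renca in 2. The changes in these fits were -0.21 to -0.16 for Eng and 0.18 to 0.23 for Bmpr2 in BNL 1ME A.7R.1 and 0.36 to 0.49 for Id3 in Renca. They were -0.57 to -0.35 for Eng in Renca, 0.46 to 0.57 for Smad6 in BNL 1ME A.7R.1 and 0.44 to 0.55 for Id2 in Renca. Upper-quartile rescaling took Bmpr2 in BNL 1ME A.7R.1 to 0.011 (adjusted p = 0.930) and Smad6 there to 0.34 (adjusted p = 0.0774). When the same contrasts were taken from the fit of all 72 tumors, 3 combinations were lower and 9 were higher, compared with 2.88% and 4.17% of combinations for all genes. Of the 10 calls above, 5 were kept there, and Eng in MBT2 (-0.81, adjusted p = 0.0238) and KLN205 (-0.74, adjusted p = 0.0347), Id1 in KLN205 (0.64, adjusted p = 0.00812) and Smad7 in B16-F10 (0.60, adjusted p = 0.0138) were among those added.

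Markers of other cell types moved with LEN as well. Endothelial markers were lower for 7 of 7 tested, mural cell markers for 5 of 5, macrophage markers for 3 of 4 and erythroid markers for 2 of 2. T cell markers were higher for 4 of 4 and skeletal muscle markers for 3 of 3. No marker of these lists was at 0 in all tumors. Summed muscle markers were 22.3 to 79.3 TPM in NT and 1161 to 1682 TPM in LEN tumors of BNL 1ME A.7R.1, and 1.06 to 12.4 TPM and 90.8 to 139.8 TPM in B16-F10. Their part in the changes of the 9 genes was not tested. In a fit added after seeing the data, 6 LEN tumors above the highest NT tumor in muscle markers were left out, which removed BNL 1ME A.7R.1 entirely. There Eng, Tgfbr2, Smad7 and Id2 kept their calls, and Smad6 (0.10, adjusted p = 0.233) and Id1 (0.095, adjusted p = 0.209) did not.

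Since Eng and Acvrl1 are read as endothelial genes, the change of each gene was set against the mean change of Cdh5, Pecam1, Tie1 and Esam in the same tumors. That reference was lower with LEN by 0.87 on the log2 scale, from -0.42 in Hepa 1-6 to -1.30 in BNL 1ME A.7R.1. Esam and Cdh5 changed by -0.042 and -0.93 in Hepa 1-6 and by -0.20 and -1.98 in Renca, so the reference averages unlike changes. Eng lay 0.59 ± 0.053 (SE) above the reference, which was the smallest distance of the 9 genes, and Id2 lay 1.17 ± 0.076 (SE) above it, the largest. The distances were 0.95 for Acvrl1, 0.87 for Bmpr2, 0.71 for Tgfbr2, 1.02 for Smad6, 1.11 for Smad7, 1.06 for Id1 and 0.81 for Id3. Each of the 9 was above the reference in 12 of 12 models. The mean changes of all 9 were called above the reference (adjusted p under 0.05, limma), as were those of 98.7% of all genes.

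**Figure D4:**
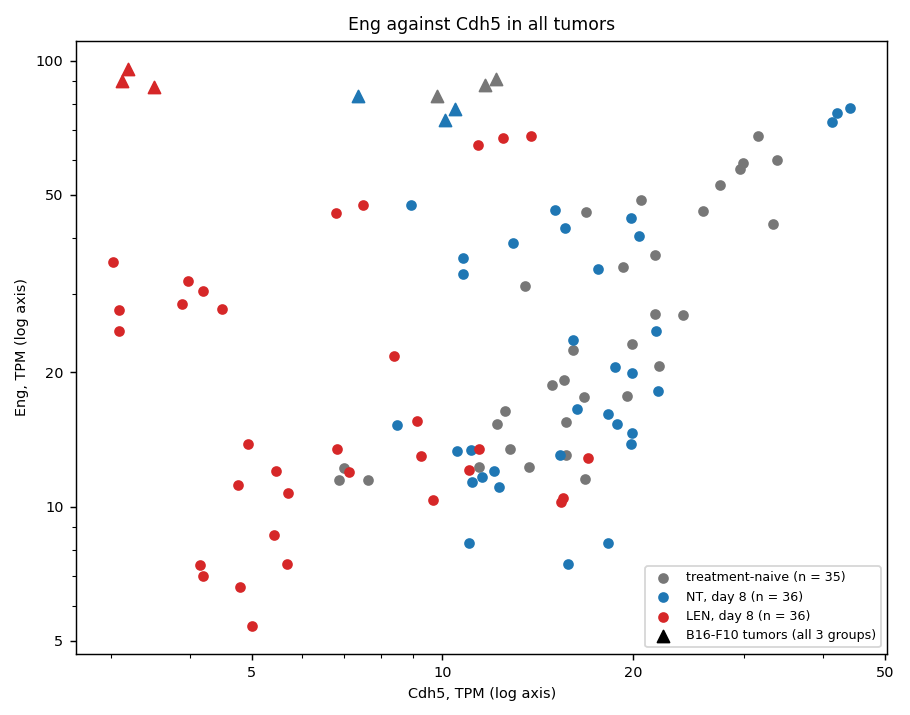
Eng against Cdh5 in TPM on log axes in all tumors, with treatment-naive, NT and LEN tumors in gray, blue and red and B16-F10 as triangles. LEN tumors lie to the left at lower Cdh5, and B16-F10 stands above the other models in Eng relative to Cdh5, with Eng between 73.8 and 96.0 TPM at Cdh5 between 3.12 and 12.1 TPM.

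Within groups, tumors with more endothelial RNA also had more Eng. Over all tumors (35 treatment-naive, 36 NT and 36 LEN), with the mean of each model and group removed, Pearson's r with the 4-gene reference was 0.62 for Eng, 0.56 for Tgfbr2, 0.42 for Id3 and 0.36 for Bmpr2. It was 0.28 for Id1, 0.26 for Acvrl1, 0.20 for Id2, 0.011 for Smad7 and -0.014 for Smad6. Among the 36 pairs of the 9 genes, r ran from -0.073 (Acvrl1 and Smad6) to 0.65 (Eng and Tgfbr2). Values of a tumor share a library and its scaling, and these correlations are descriptions.

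By the same measure over 17429 genes, the genes most like Eng were Itpkb (r = 0.73), Gm2a (0.72) and Sirpa (0.71), and those most like Tgfbr2 were Anxa6 (0.82), Pik3cg (0.81) and Csf1r (0.80). Bmpr2 was followed most closely by Taok1 (0.87), Vcpip1 (0.86) and Lrrc58 (0.86), Id2 by Ifi202b (0.79) and Smad7 by Errfi1 (0.60) and Dusp1 (0.55). The closest genes reached 0.60 for Acvrl1 (Xcl1), 0.54 for Id1 (Grrp1), 0.60 for Id3 (Tmem176b) and 0.50 for Smad6 (RP24-147D14.5). Over the means of 36 groups, the closest genes were A530064N14Rik for Eng (r = 0.88), Cyfip2 for Acvrl1 (0.85), Fam20a for Tgfbr2 (0.88) and Jup for Smad6 (0.90).

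Change without drug was examined by comparing NT tumors at day 8 with treatment-naive tumors, as the mean over 12 models in 71 tumors. These groups were collected at separate times, so growth, dissection and any library batch cannot be told apart. The NT tumors are also the controls of the LEN comparison, so the 2 sets of changes share samples. Bmpr2 rose, and Acvrl1, Id1 and Id2 fell. Of 17428 genes tested, 11.5% were lower and 17% were higher, and the median change was -0.036 over the 9 genes and 0.013 over all genes. The share of called genes that were higher was 59.7% as deposited, 28.8% after upper-quartile rescaling and 40.8% after rescaling without Rn7s1, Rn7s2, Rn7sk and mitochondrial genes. Rn7 genes took a median of 27.6% of TPM in treatment-naive, 22.5% in NT and 20.9% in LEN tumors, and with their share as a covariate the number of genes higher was 826 instead of 2971.

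Markers of skeletal muscle, fibroblasts and T cells also had lower values in NT than in treatment-naive tumors. The mean changes of the skeletal muscle markers Ckm, Acta1 and Myh4 were -1.33, -1.23 and -1.38, those of 5 fibroblast markers ran from -0.65 (Dcn) to -0.16 (Pdgfra), and those of 4 T cell markers from -0.46 (Cd2) to -0.21 (Cd3g). Summed muscle markers ran from 0.14 to 480.9 TPM in treatment-naive and from 0.31 to 109.7 TPM in NT tumors. Their part in the changes of the 9 genes was not tested.

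Bmpr2 rose by 0.20 ± 0.025 (SE, adjusted p = 9.83e-08) from treatment-naive to NT, in 10 of 12 models. In BNL 1ME A.7R.1, treatment-naive tumors had 16.2, 18.3 and 18.3 TPM and NT tumors 29.7, 30.8 and 31.9 TPM. NT lay above with no overlap there and in 4T1, KLN205, MC38 and RAG, and below in CT26.WT, with 17.9, 19.7 and 20.4 TPM in treatment-naive and 15.9, 16.2 and 16.9 TPM in NT tumors. The fits with a tumor or model left out kept this call (largest adjusted p = 9.65e-05).

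Acvrl1 fell by 0.18 ± 0.052 (SE, adjusted p = 0.00593), in 8 of 12 models. Hepa 1-6 had 13.5, 16.9 and 18.8 TPM in treatment-naive and 7.62, 9.06 and 9.86 TPM in NT tumors, with no overlap, and EMT6 and Renca were also lower in every tumor. Without Hepa 1-6 the mean was -0.13 and the adjusted p 0.0730. Eng changed by -0.14 ± 0.059 (SE, adjusted p = 0.0683). It passed the threshold under upper-quartile rescaling (-0.19, adjusted p = 0.00590), under rescaling without the Rn7 and mitochondrial genes (-0.17, adjusted p = 0.0223) and with the Rn7 share as a covariate (-0.24, adjusted p = 0.00971). Of the endothelial reference, Pecam1 fell by 0.32 (adjusted p = 0.00013), Tie1 by 0.21 (adjusted p = 0.0116) and Esam by 0.16 (adjusted p = 0.0459), and the last call was lost in 49 of 83 left-out fits, that of Tie1 without Renca (adjusted p = 0.168) or EMT6 (adjusted p = 0.0595). Cdh5 changed by -0.10 (adjusted p = 0.194), and by -0.15 (adjusted p = 0.0369) after upper-quartile rescaling.

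Id1 fell by 0.25 ± 0.046 (SE, adjusted p = 5.89e-05), in 9 of 12 models. B16-F10 had 3.24, 4.20 and 4.62 TPM in treatment-naive and 1.81, 1.85 and 2.13 TPM in NT tumors. RAG went from 20.2, 21.0 and 24.4 TPM to 14.8, 15.7 and 16.1 TPM, and BNL 1ME A.7R.1, CT26.WT and Renca were likewise lower with no overlap. Id2 fell by 0.19 ± 0.061 (SE, adjusted p = 0.0164), in 7 of 12 models. Renca had 14.5, 16.6 and 19.0 TPM in treatment-naive and 9.35, 9.57 and 9.64 TPM in NT tumors. The call of Id2 was lost without Renca (adjusted p = 0.112), LL/2 (adjusted p = 0.0923), B16-F10 (adjusted p = 0.0616) or MC38 (adjusted p = 0.0526).

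Id3, Smad6, Smad7 and Tgfbr2 had mean changes of -0.036, -0.025, 0.047 and 0.030 with adjusted p between 0.568 and 0.803. For Tgfbr2 and Smad7 the sign depended on the scaling, at -0.023 and -0.0058 after upper-quartile rescaling. For Tgfbr2 and Smad7, models lay apart in opposite directions. Tgfbr2 was lower in Renca, from 37.2, 43.5 and 47.8 TPM to 20.2, 20.9 and 23.7 TPM and was higher in BNL 1ME A.7R.1, from 43.4, 44.5 and 47.8 TPM to 73.9, 75.4 and 88.8 TPM, in both with no overlap. Without Renca its mean was 0.12 with an adjusted p of 0.0379. Smad7 in EMT6 went from 19.9, 21.2 and 23.6 TPM to 30.0, 40.4 and 42.2 TPM, and in Renca from 7.40, 8.11 and 9.08 TPM to 3.89, 6.56 and 7.22 TPM.

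The change from treatment-naive to NT differed between models for 8 of the 9 genes, Smad6 being the exception (adjusted p = 0.536), beside 66.5% of all genes. For Acvrl1 this was lost without Hepa 1-6 (adjusted p = 0.0999), and for Id2 with the Rn7 share as a covariate (adjusted p = 0.0710). Smad6 passed in 1 of 83 fits with a tumor or model left out. Over the 108 combinations, 54 were lower and 54 higher. NT lay below treatment-naive with no overlap in 26 (24.1%) and above in 15 (13.9%), compared with 13.7% and 15.8% for all genes.

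**Figure D5:**
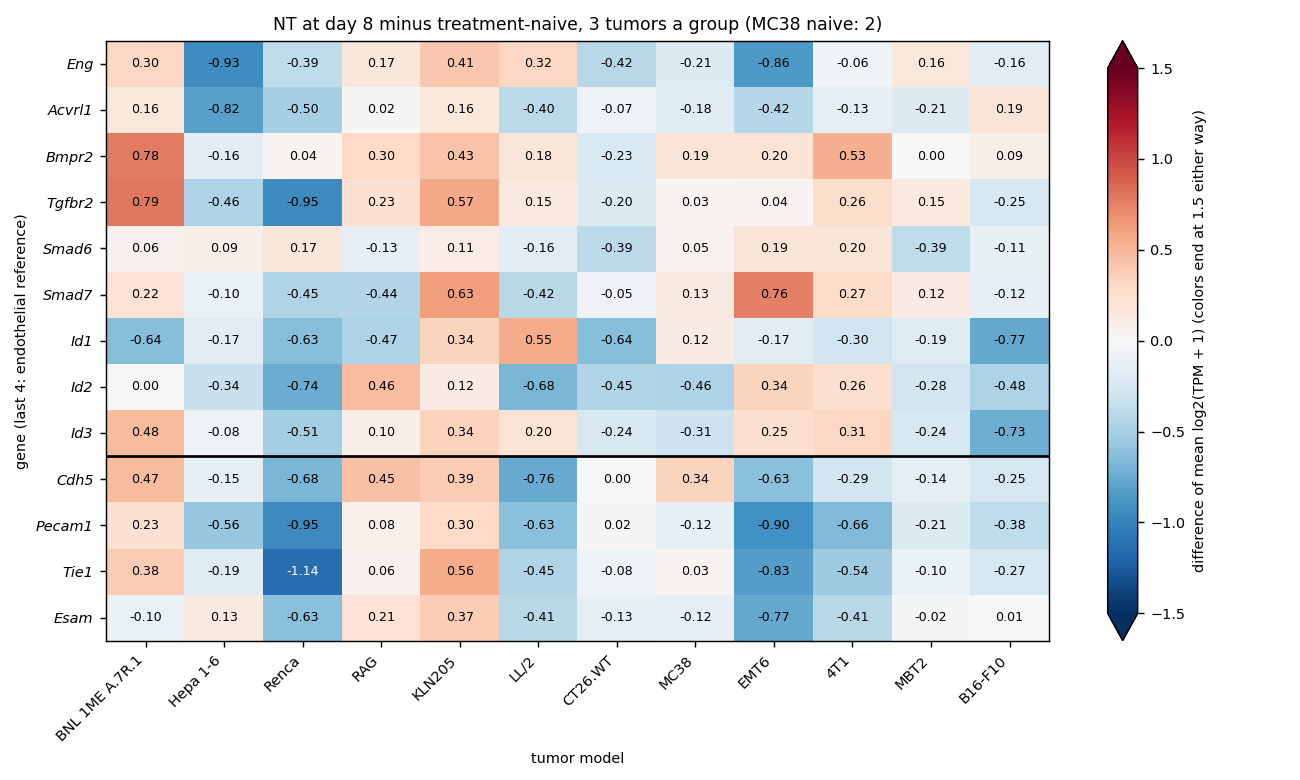
Difference of mean log2(TPM + 1) between NT tumors at day 8 and treatment-naive tumors (3 against 3, or 3 against 2 for MC38) for each gene and model, with the 4 endothelial reference genes below the line. Bmpr2 is higher in 10 models and Id1 lower in 9, while Tgfbr2 ranges from -0.95 in Renca to 0.79 in BNL 1ME A.7R.1.

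The rest of the pathway was followed in a list of 45 further ligands, receptors, signal carriers, modulators and targets, of which 32 were tested. With LEN 3 were lower and 9 higher, beside 9.87% and 13.7% of all genes, with a median of 0.052. Ligands were 2 lower and 2 higher of 7, receptors 0 and 2 of 7, SMAD signal carriers 0 and 1 of 5, modulators 0 and 2 of 5, intracellular negative regulators 0 and 1 of 4, and targets 1 and 1 of 4. Acvr1, which encodes the type I BMP receptor ALK2, rose by 0.10 (adjusted p = 0.0245) in 10 models, a call that was lost without BNL 1ME A.7R.1 (adjusted p = 0.135), Hepa 1-6 (adjusted p = 0.0692) or EMT6 (adjusted p = 0.0634). It was also lost after rescaling without Rn7 and mitochondrial genes (0.079, adjusted p = 0.0769) and with the Rn7 share as a covariate (0.047, adjusted p = 0.401). Hey1, a target shared with Notch signaling, fell by 0.34 (adjusted p = 4.69e-07, limma), with 9 models lower and 3 higher. Its mean was 1.69 TPM in NT tumors, and its change differed between models (F test, adjusted p = 0.000725). Gdf2 and Bmp10, the genes of BMP9 and BMP10, were at model means of 0.0053 and 0.029 TPM in NT tumors and were too low to test.

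From treatment-naive to NT, 4 of the 32 genes were lower and 12 higher, beside 11.5% and 17% of all genes, with a median of 0.050. The receptor gene Bmpr1a rose by 0.23 (adjusted p = 3.84e-06) and Smurf1, a ubiquitin ligase that acts on SMADs, rose by 0.13 (adjusted p = 0.00129), each in 11 of 12 models. With the Rn7 share as a covariate, Smurf1 changed by 0.094 with an adjusted p of 0.0622.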

How the data were processed

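RNA was measured in 35 treatment-naive, 36 NT and 36 LEN subcutaneous tumors of 12 models. The authors depleted ribosomal RNA, trimmed reads with Trimmomatic 0.36, mapped them with STAR 2.5.2b to GRCm38 and estimated expression with RSEM 1.2.31 (versions from the submitters' processing notes). The authors deposited TPM per gene and tumor. TPM keeps no depth, so counting precision is unknown, and which tumor was run on which sequencer is not given in the sources used here.

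Values were analyzed as log2(TPM + 1), so changes of low genes are understated. Genes with a mean of at least 1 TPM over the tumors of a fit were tested with limma 3.58.1 (trend, R 4.3.3), with 1 coefficient per model and group and Benjamini-Hochberg adjustment at 0.05 over all genes tested. The mean over models weighted the 12 models equally, and the F test asked whether models differed. The members and lists were chosen with earlier results of these data known. Genes outside the 9 were named when past the threshold and changed the same way in at least 10 models, or as the 3 most alike. Some genes named by this rule are not reported here. Hey1, Gdf2 and Bmp10 were named after their values were seen. Scripts were tested on simulated data. Replicate numbers did not pair tumors: over 20 NT and LEN pairs, r ran from -0.080 to 0.078. Where tumors of a group did not come from separate animals, p-values measure only the spread between samples. Alternatives were another pseudocount, filter, scaling, trend or covariate, and leaving out each tumor or model.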

Additional observations from a re-analysis of the deposited data

Results flagged for a closer look

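The change with LEN differed between the 12 models for 6 of the 9 genes by the limma F test. The adjusted p was 0.0126 for Eng, 0.021 for Acvrl1, 0.03 for Bmpr2, 8.58e-06 for Tgfbr2, 0.0322 for Smad6 and 2.93e-05 for Id1.

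The change from treatment-naive to NT differed between models for 8 genes. The adjusted p was 0.000173 for Eng, 0.00807 for Acvrl1, 2.53e-08 for Bmpr2, 6.63e-08 for Tgfbr2, 0.000626 for Smad7, 8.29e-06 for Id1, 0.00148 for Id2 and 0.00152 for Id3.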

How the results depend on the processing

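From treatment-naive to NT, the number of genes lower was 2002, and it was 951 at a mean TPM of at least 5, 3519 after upper-quartile rescaling and 3042 after rescaling without Rn7 and mitochondrial genes. The number higher was 2971, and it was 1421 after upper-quartile rescaling and 826 with the Rn7 share as a covariate. With LEN, 3160 genes were lower after upper-quartile rescaling (1712 as reported) and 1275 higher with the Rn7 covariate (2371). From treatment-naive to NT, Tgfbr2 changed sign at -0.023 (upper-quartile) and -0.016 (Rn7 covariate) and Smad7 at -0.0058 (upper-quartile).

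With the replicate number as a block, which did not pair the tumors, 1280 genes and 1 of the 9 were higher with LEN, and from treatment-naive to NT 830 genes and 1 of the 9 were lower and 1082 genes were higher. The calls that passed no longer were, with LEN, Smad6 (0.064, adjusted p = 0.610), Smad7 (0.18, adjusted p = 0.187), Id1 (0.16, adjusted p = 0.0608), Acvr1 and Bmp2, and from treatment-naive to NT, Acvrl1, Id2, Esam and Tmem100.

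Without the LEN tumors high in muscle markers, chosen after seeing the data, 1261 genes and 2 of the 9 were higher with LEN, and 2156 genes and 2 of the 9 differed between models. With no mean-variance trend, the 9 genes gave 1 lower call within a model instead of 3. Smad6 has no value at a mean TPM of at least 5.

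Leaving out tumors or models gave with LEN 1440 (without BNL 1ME A.7R.1) to 3262 genes higher, 1 (without Renca) to 2 of the 9 lower, 2 (without BNL 1ME A.7R.1) to 4 higher, a Bmpr2 change of -0.024 to 0.024, and 3443 to 8663 genes that differed between models. From treatment-naive to NT it gave 1765 (without KLN205) to 3891 genes higher, 1 to 2 (without Renca) of the 9 higher, and changes of -0.039 to 0.12 for Tgfbr2, -0.050 to 0.015 for Smad6, -0.018 to 0.092 for Smad7 and -0.083 to 0.027 for Id3. The causes were not tested.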
